A study of Homo sapiens with 29 samples.

Results

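The genes described here carry the Wnt signal from the cell surface to the degradation of β-catenin: the Wnt ligands and the proteins that release them, the Frizzled receptors and co-receptors, the Dishevelled proteins, and the scaffolds, kinases and ubiquitin factors of the β-catenin destruction complex. They were taken by symbol from the table of 13492 genes: every WNT and FZD gene in it, and 31 further genes given by name. This gave 49 genes: 10 ligands, 9 Frizzled receptors and 30 of the 31 named genes, with ROR2 not analysed here. RNA-seq with polyA selection covered 29 libraries of the human colorectal adenocarcinoma line COLO320DM, grown in vivo per the series title and taken at 48 hr. Groups were vehicle (n = 10 libraries), Helicon4neg at 30 mpk (n = 8), Helicon4 at 30 mpk (n = 6) and Helicon4 at 100 mpk (n = 5), with doses in the labels' unit, mpk. The series title names a helicon peptide directed at β-catenin and its TCF partners, and nothing in the labels gives a structure for Helicon4 or says how Helicon4neg differs from it. All groups are of the same cell line and time, and no untreated or earlier sample was analysed here. Replicate numbers are the only sign that libraries came from separate animals, so p-values measure the spread between these libraries.

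Without a Wnt ligand, a complex built on AXIN and APC holds β-catenin while CK1 and GSK3 kinases phosphorylate it, and the ubiquitin ligase subunit β-TrCP then marks it for destruction. A Wnt ligand, lipid-modified by PORCN and carried out of the cell by WLS, binds a Frizzled receptor together with LRP5 or LRP6, and Dishevelled then draws AXIN to the membrane, so that β-catenin accumulates and acts with TCF factors in the nucleus. In the intestine this pathway maintains the stem cells of the crypt, and most colorectal cancers carry mutations, often in APC, that keep it active without a ligand.

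Values are CPM on the authors' scaling, and a fold change is a difference of mean log2(CPM + 1) with its standard error, which understates changes of genes near 1 CPM. Adjusted p is from limma with Benjamini-Hochberg adjustment over 13373 genes, with 0.05 as the threshold for a call. Of the 49 genes, 48 had at least 1 CPM in at least 5 libraries and were tested, and WNT4 did not. WNT6 passed only through vehicle (5 libraries) and Helicon4neg (6 libraries), with 0 in either Helicon4 group, so it had to be higher there, and its values are given as a description with no test. Recovered reads numbered 26.8 to 61.6 M per library. Of 7 markers of colorectal epithelium, 5 were measured and none was at 0: CDX2, a transcription factor of intestinal identity, was at 3135 ± 568, 4109 ± 488, 2652 ± 244 and 2087 ± 409 CPM in vehicle, Helicon4neg, 30 mpk and 100 mpk (SD, n = 10, 8, 6 and 5 libraries). KRT20, a keratin of differentiated gut epithelium, was at 4.61 ± 1.09, 3.33 ± 0.778, 4.48 ± 1.56 and 8.30 ± 1.77 CPM in the same order, and the group means of KRT8 lay between 171 and 187 and those of EPCAM between 27.7 and 32.7. CDH1 and VIL1 were not analysed here. Helicon4neg library 2 had the lowest slope of expression against gene length (-0.321), followed by vehicle library 6 (-0.186). Vehicle libraries 4 and 8 came next, at -0.135 and -0.132. Helicon4neg library 2 and vehicle library 6 are called the 2 libraries that stand apart below. Without both libraries, 27, 7, 6, 13 and 8 of these genes were called in the 5 comparisons in the order given next, against 21, 5, 4, 12 and 3 with all libraries. Of all genes, 5267, 2193, 2025, 2575 and 1051 were called without both libraries, against 4043, 1481, 647, 2018 and 482.

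With Helicon4 at 100 mpk against vehicle, 9 genes rose and 12 fell of 48 tested, a share of 43.8%, where 30.2% of all genes tested were called (14.3% rose and 15.9% fell). With Helicon4 at 30 mpk against vehicle, 2 rose and 3 fell, a share of 10.4% against 11.1% of all genes (5.86% rose, 5.22% fell). With Helicon4neg against vehicle, 3 rose and 1 fell, a share of 8.33% against 4.84% of all genes (2.21% rose, 2.62% fell). At the matched dose of 30 mpk, Helicon4 against Helicon4neg gave 3 genes that rose and 9 that fell, a share of 25% against 15.1% of all genes (7.78% rose, 7.31% fell). With Helicon4 at 100 against 30 mpk, 3 fell, a share of 6.25% against 3.6% of all genes (1.74% rose, 1.86% fell). WNT6 is counted among the genes that fell against vehicle at each dose and against Helicon4neg, and without it 20, 4 and 11 of 47 genes were called (42.6%, 8.51% and 23.4%). The median fold change over the 48 genes was -0.02, 0.07, 0.08, 0.00 and -0.05 in these 5 comparisons, and over all genes it lay within 0.01 of 0. The genes thus moved in both directions at 100 mpk with no common shift, and the 2 doses are given side by side below because both are set against the same vehicle libraries. In bulk tumor RNA, fewer cells of a type and less RNA per cell cannot be told apart.

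**Figure D1:**
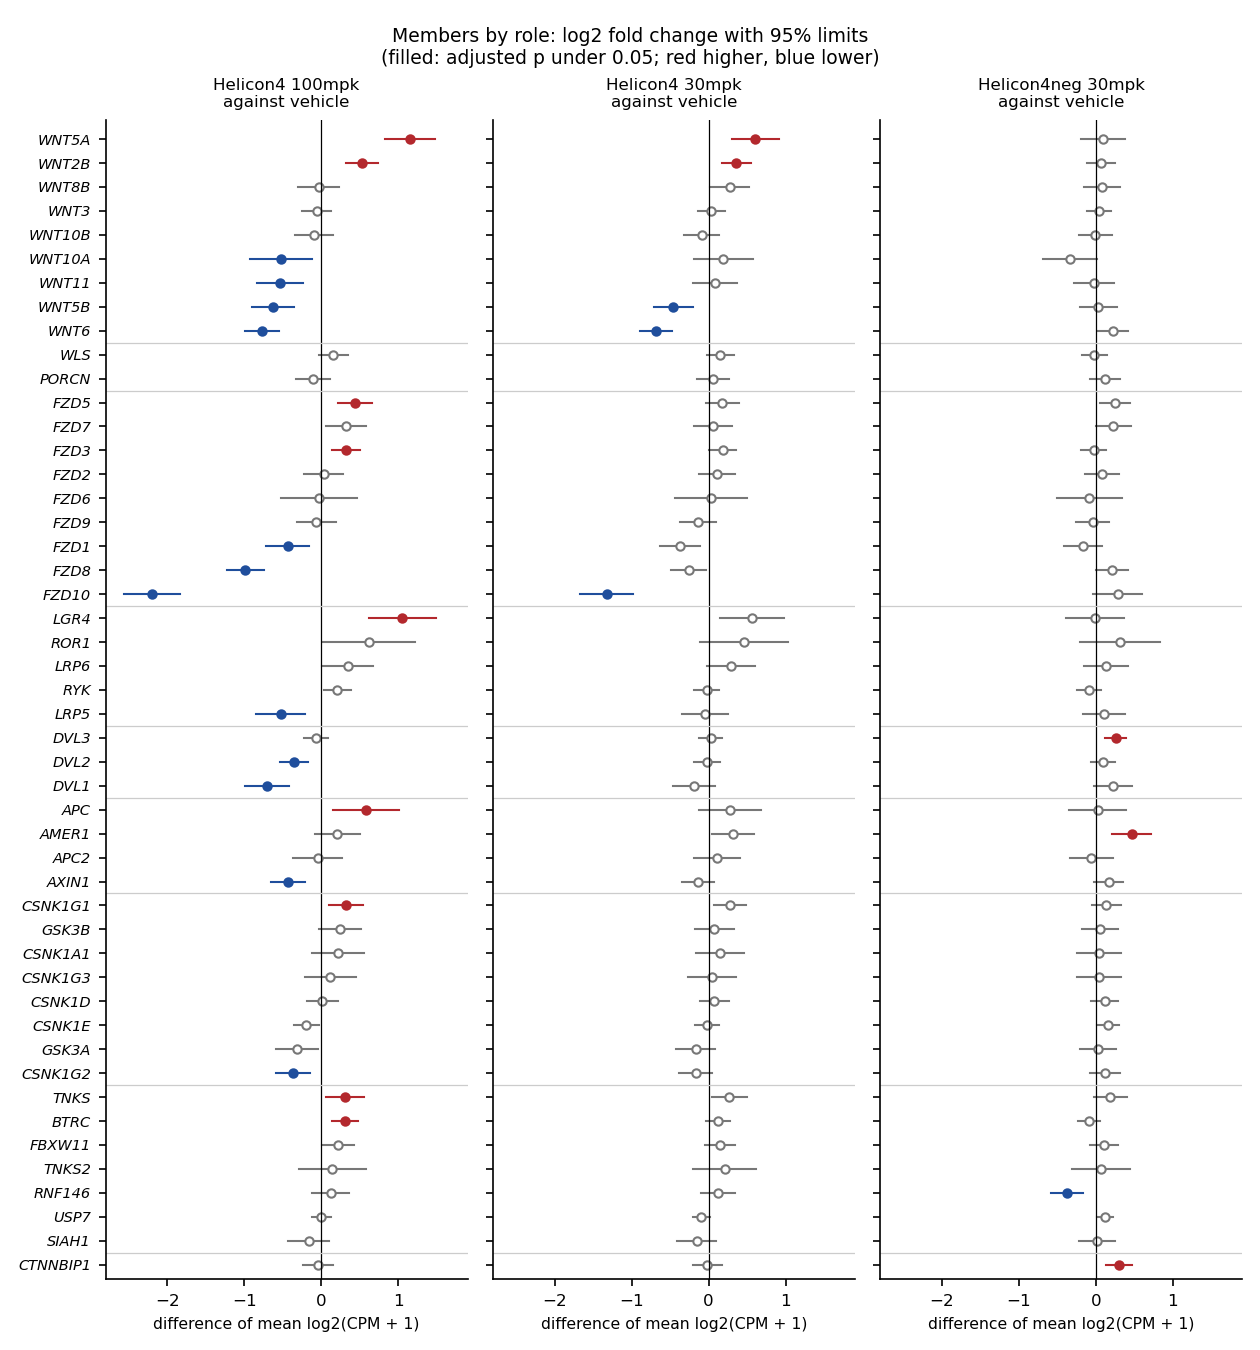
Difference of mean log2(CPM + 1) from vehicle (x axis, with 95% limits) for each of the 48 genes tested (y axis, ordered by role and separated by grey lines: ligands, secretion, Frizzled, co-receptors, Dishevelled, scaffolds, kinases, turnover, CTNNBIP1), for the 2 doses of Helicon4 (left, 100 mpk; middle, 30 mpk) and for Helicon4neg (right). Filled points have an adjusted p under 0.05, red for higher and blue for lower. WNT6 is drawn as the fit gave it, but it passed the filter only through vehicle and Helicon4neg, so its points are no test. FZD10 lies farthest from 0 at both doses of Helicon4, at -2.20 and -1.32, and at 0.29 with Helicon4neg.

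Libraries also carry a title code whose meaning is not stated, and no code holds vehicle together with Helicon4. With that code as a block, 1, 0, 0, 1 and 0 of these genes were called in the 5 comparisons, FZD10 in both cases, and 141, 74, 2, 184 and 10 of all genes. Against vehicle, code and Helicon4 at either dose therefore cannot be told apart within any code. The blocked differences of Helicon4 from vehicle are indirect and run through Helicon4neg over the shared codes given next. They rest on few libraries, among them 2 of vehicle and 1 of Helicon4 at 30 mpk in codes shared with Helicon4neg. The other 3 comparisons each have 1 shared code: SH7080 holds 5 Helicon4neg and 2 vehicle libraries, SH7081 holds 3 Helicon4neg and 1 Helicon4 30 mpk library, and SH7083 holds 4 libraries at 100 mpk and 1 at 30 mpk. Genes listed as markers of host cell types, called host markers below, also differed in level between groups, and not all in the same direction. Whether their reads came from host cells or from the tumor line was not tested. The summed level of the 7 fibroblast markers measured, of 14 listed, had a median of 247 CPM in vehicle (range 182 to 276), 283 with Helicon4neg (221 to 305), 153 with Helicon4 at 30 mpk (137 to 190.4) and 119.9 at 100 mpk (105 to 168). MMP2 and BGN made up most of that sum, while COL1A1 was at 12.3 ± 2.64 CPM in vehicle and 21.4 ± 2.24 at 100 mpk (SD, n = 10 and 5 libraries). The sum of 4 of 9 endothelial markers had medians of 65.6, 56.0, 51.6 and 39.3 CPM in the same order (ranges 44.8 to 97.8, 44.7 to 150.1, 35.6 to 59.1 and 27.7 to 42.4), and that of 4 of 8 leukocyte markers 30.7, 38.7, 29.7 and 34.7 (ranges 27.2 to 44.5, 16.7 to 41.9, 25.5 to 36.3 and 26.5 to 38.7). No measured marker had a group mean of 0; the lowest was PDGFRA, at 0.366 CPM in vehicle and 2.02 at 100 mpk. With the mean log2 level of the 3 lists as a covariate, 10, 8, 1, 8 and 1 of the 48 genes were called in the 5 comparisons, and 2371, 2703, 476, 1774 and 134 of all 13373. That mean level ran from 3.16 to 3.39 in vehicle and from 2.89 to 3.12 at 100 mpk, with no overlap. For 100 mpk against vehicle, marker level and treatment therefore cannot be told apart, and calls lost, gained or changed in sign in that fit carry this limit.

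To show the sequence at the start of genes that carry the contrast, promoters were read from the RefSeq table of build GRCh38.p14, which matched 37 of the 49 genes with 50 starts; FZD10 had no entry. Each is the 250 bases before the start, 5′ to 3′ on the gene's strand. The letters CTTTGA and CTTTGT, the core of the TCF/LEF motif, were searched on both strands, and matches are in capitals. FZD8 (chr10:35642297-35642546, minus strand) and WNT6 (chr2:218859555-218859804, plus strand) are shown because both were lower with Helicon4. FZD1 (chr7:91264183-91264432, plus strand) and CSNK1G1 (chr15:64356174-64356423, minus strand) are shown because a match lies in the window of a gene that fell and of one that rose at 100 mpk.
FZD8: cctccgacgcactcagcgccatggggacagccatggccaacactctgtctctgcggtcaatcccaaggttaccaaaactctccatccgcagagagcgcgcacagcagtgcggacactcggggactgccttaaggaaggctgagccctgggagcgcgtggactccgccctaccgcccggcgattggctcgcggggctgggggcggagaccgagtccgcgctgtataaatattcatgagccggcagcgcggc
WNT6: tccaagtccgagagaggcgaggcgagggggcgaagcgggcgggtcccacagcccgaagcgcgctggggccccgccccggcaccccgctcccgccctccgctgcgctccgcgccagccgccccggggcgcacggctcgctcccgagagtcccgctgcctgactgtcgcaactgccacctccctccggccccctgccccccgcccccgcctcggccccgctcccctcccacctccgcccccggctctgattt
FZD1: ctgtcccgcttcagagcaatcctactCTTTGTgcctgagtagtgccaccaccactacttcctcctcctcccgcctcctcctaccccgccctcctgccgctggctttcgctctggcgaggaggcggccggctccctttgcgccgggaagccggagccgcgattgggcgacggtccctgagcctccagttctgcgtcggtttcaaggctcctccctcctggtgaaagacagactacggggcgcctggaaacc
CSNK1G1: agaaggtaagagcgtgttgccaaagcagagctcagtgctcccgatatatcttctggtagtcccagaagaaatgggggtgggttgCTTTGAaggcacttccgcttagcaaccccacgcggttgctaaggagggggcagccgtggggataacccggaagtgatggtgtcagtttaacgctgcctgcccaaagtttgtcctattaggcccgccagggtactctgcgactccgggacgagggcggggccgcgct
The FZD8 and WNT6 windows held no match, the FZD1 window held CTTTGT starting at position -224 from the start, and the CSNK1G1 window held CTTTGA starting at position -166. Of the 50 windows 7 held a match (14.0%), where 22.8% of all 35116 promoters and 17.1% of those of genes tested did. The windows of WNT5A, WNT5B, WNT2B and LGR4 held none. The dinucleotide CG occurred 24 times in the FZD8 window and 32 times in the WNT6 window, against a median of 20 in promoters of genes tested. These matches describe letters only and draw on no binding data.

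Among the ligands, WNT5A and WNT2B rose and WNT5B, WNT10A and WNT11 fell at 100 mpk, WNT6 and WNT4 lay near or under 1 CPM, and WNT3, WNT8B and WNT10B did not pass the test in any comparison. WNT5A, a ligand known mainly for signalling that does not use β-catenin (chr3:55465715-55490539, minus strand), was at 20.5, 29 and 33.4 CPM (lowest, median, highest) in vehicle, at 13.9, 32.1 and 36.4 with Helicon4neg, and at 37.0, 43.6 and 47.3 with Helicon4 at 30 mpk. Its 5 libraries at 100 mpk were at 49, 83.6, 72.9, 52.4 and 60.3 CPM. Every Helicon4 library was above every vehicle and Helicon4neg library, and every library at 100 mpk was above every library at 30 mpk. The fold change of WNT5A was 1.15 ± 0.16 at 100 mpk (adjusted p = 1.74e-06) and 0.61 ± 0.15 at 30 mpk (adjusted p = 0.00606), and between the doses it was 0.54 ± 0.18 (adjusted p = 0.083). The difference between doses passed with DESeq2 on recovered reads (adjusted p = 0.0235) and in a fit of both doses alone (adjusted p = 0.0343). It also passed without Helicon4neg library 2 and vehicle library 6 (adjusted p = 0.00743) and with the length slope as a covariate (adjusted p = 0.00115). It did not pass with edgeR, host markers or title codes blocked. Against Helicon4neg at 30 mpk WNT5A rose by 0.51 ± 0.16 (adjusted p = 0.0235), a call lost without Helicon4 30 mpk library 1 (adjusted p = 0.0601) and in a fit of these 2 groups alone (adjusted p = 0.0572). Under the title-code block its fold changes were 0.75 (adjusted p = 0.765) at 100 mpk, 0.27 (adjusted p = 0.987) at 30 mpk and 0.50 (adjusted p = 0.894) against Helicon4neg. Such groups without overlap occurred for 6, 3, 0, 5 and 3 of the 48 genes in the 5 comparisons (5, 2, 0, 4 and 3 without WNT6), and for 8.8%, 4.34%, 0.508%, 7.1% and 3.92% of all genes.

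WNT2B, a ligand of the canonical pathway made in gut stroma, was at 6.12, 7.93 and 11.4 CPM in vehicle, at 7.39, 7.98 and 10.7 with Helicon4neg and at 8.94, 10.6 and 11.7 with Helicon4 at 30 mpk. At 100 mpk its libraries were at 13.2, 11.2, 12, 13.4 and 9.97 CPM. The Helicon4 libraries overlapped vehicle through vehicle library 1 alone, at 11.4 CPM. WNT2B rose by 0.53 ± 0.10 at 100 mpk (adjusted p = 0.000174) and by 0.36 ± 0.10 at 30 mpk (adjusted p = 0.00995). Its rise of 0.30 ± 0.10 against Helicon4neg (adjusted p = 0.0401) was lost in 10 of 14 fits that left out 1 library: without Helicon4neg library 1 (0.0677), 2 (0.0583), 3 (0.0611), 4 (0.0743), 7 (0.066) or 8 (0.0554), or Helicon4 30 mpk library 1 (0.0819), 2 (0.0912), 3 (0.0977) or 6 (0.0627). It was also lost with host markers as a covariate (0.26, adjusted p = 0.192). The ST7L gene lies on the opposite strand and shares 2661 exon bases with WNT2B in GENCODE 29, and whether reads were counted by strand is not stated. ST7L itself was at 27.8 ± 2.91 CPM in vehicle and 27.2 ± 2.84 at 100 mpk (SD, n = 10 and 5 libraries), a difference of -0.03 ± 0.08 (adjusted p = 0.821). In the fit blocked on title code, the WNT2B fold change at 100 mpk was 0.54 (adjusted p = 0.646), at 30 mpk 0.30 (adjusted p = 0.987) and against Helicon4neg 0.25 (adjusted p = 0.931).

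WNT5B, the close relative of WNT5A, went the other way. It was at 17.0, 21.2 and 24.6 CPM in vehicle, at 16.4, 20.3 and 36.5 with Helicon4neg and at 12.8, 14.2 and 19.7 with Helicon4 at 30 mpk, and its libraries at 100 mpk were at 16.4, 12.2, 11.8, 10.6 and 15.2 CPM. All libraries at 100 mpk were below all vehicle libraries. WNT5B fell by 0.63 ± 0.13 at 100 mpk (adjusted p = 0.000612), by 0.46 ± 0.13 at 30 mpk (adjusted p = 0.0154) and by 0.49 ± 0.13 against Helicon4neg (adjusted p = 0.00997). The call at 30 mpk was lost without Helicon4 30 mpk library 1 (adjusted p = 0.0531). Fitted with title codes blocked, the WNT5B fold changes were -0.12 (adjusted p = 0.932), -0.10 (adjusted p = 0.99) and -0.47 (adjusted p = 0.754).

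WNT6 (chr2:218859821-218874233, plus strand), a canonical ligand found in epithelia, was at 0.443, 0.986 and 1.37 CPM in vehicle and 0.956, 1.25 and 2.52 with Helicon4neg. It was at 0.125, 0.27 and 0.311 CPM with Helicon4 at 30 mpk, and at 0.137, 0.199, 0.16, 0.0802 and 0.234 CPM at 100 mpk. No Helicon4 library reached the lowest vehicle or Helicon4neg library. The groups held 433 reads in vehicle, 470 with Helicon4neg, 66 at 30 mpk and 38 at 100 mpk. Per scaled depth, WNT6 was 6.29-fold lower than vehicle at 100 mpk and 4.27-fold lower at 30 mpk, given without limits because the filter fixed the direction. On the log2(CPM + 1) scale the differences were -0.77 and -0.68, and that from Helicon4neg at 30 mpk was -0.90. Under the title-code block these 3 values were -0.24, -0.22 and -0.62.

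WNT4, the ligand below the filter, had the opposite pattern at a similarly low level. It was at 0.198, 0.297 and 0.573 CPM in vehicle, 0.304, 0.391 and 0.637 with Helicon4neg, 0.462, 0.802 and 1.16 with Helicon4 at 30 mpk, and had a mean of 0.993 ± 0.299 at 100 mpk (SD, n = 5 libraries; lowest 0.674, highest 1.39). All libraries at 100 mpk were above all vehicle libraries, and those at 30 mpk overlapped vehicle. From 226 and 146 reads, the level at 100 mpk was 2.80 times that in vehicle (95% limits 2.27 to 3.47 by exact Clopper-Pearson, counting error only). In the limma fit without a filter on low values WNT4 rose by 0.57 at 100 mpk (adjusted p = 1.34e-05), by 0.43 at 30 mpk (adjusted p = 0.000578) and by 0.32 against Helicon4neg (adjusted p = 0.0116). That fit called 22, 6, 4, 13 and 3 of 49 genes in the 5 comparisons.

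WNT11, a ligand that acts largely outside the β-catenin branch, was the most abundant ligand per length in each group. It was at 50, 64.2 and 97.1 CPM in vehicle, 51.8, 60.9 and 97.5 with Helicon4neg and 52.7, 72.2 and 80.9 with Helicon4 at 30 mpk, and at 53, 43.9, 36.5, 41.5 and 50.9 at 100 mpk. Only the libraries at 100 mpk were low, with overlap at the edge of the vehicle range. WNT11 fell by 0.53 ± 0.15 against vehicle (adjusted p = 0.00679) and by 0.62 ± 0.16 against 30 mpk (adjusted p = 0.0291). The call between doses was lost without Helicon4 30 mpk library 2 (0.0624), 3 (0.0572), 4 (0.0824) or 5 (0.0615), or 100 mpk library 2 (0.0806), 3 (0.112) or 4 (0.0711). In the fit blocked on title code, the WNT11 difference from vehicle was 0.32 (adjusted p = 0.833), a change of sign, and that between doses was -0.28 (adjusted p = 0.985). Adjusted for host markers, the WNT11 difference from vehicle was -0.52 (adjusted p = 0.117) and that between doses -0.61 (adjusted p = 0.131).

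WNT10A, a canonical ligand of skin and tooth development, was at 4.69, 9.13, 7.05, 11.5 and 19.0 CPM at 100 mpk against 8.96, 14.4 and 17.7 in vehicle. Its fall of 0.53 ± 0.20 (adjusted p = 0.0432) was lost in 9 of 15 fits that left out 1 library: vehicle library 2 (0.0665), 3 (0.0703), 6 (0.0677), 7 (0.0525), 8 (0.0666) or 9 (0.0555), or 100 mpk library 1 (0.208), 2 (0.0826) or 3 (0.147). Nor was WNT10A called by edgeR (adjusted p = 0.116) or DESeq2 (adjusted p = 0.0919) on recovered reads, or in a limma fit of these 2 groups alone (adjusted p = 0.0774). With host markers as a covariate the WNT10A difference was 0.13 (adjusted p = 0.741), a change of sign, and with title codes blocked it was -0.25 (adjusted p = 0.898). At 30 mpk WNT10A differed from Helicon4neg by 0.53 ± 0.19 (adjusted p = 0.063), which passed with host markers as a covariate (1.02, adjusted p = 0.00386), in a fit of these 2 groups alone (adjusted p = 0.0182) and with DESeq2 (adjusted p = 0.0356). WNT10B, WNT3 and WNT8B differed from vehicle at 100 mpk by -0.09 (95% limits -0.34 to 0.16), -0.06 (-0.25 to 0.13) and -0.03 ± 0.13. WLS and PORCN, the proteins that export and lipidate all Wnt ligands, did not pass the test in any comparison: at 100 mpk WLS differed by 0.16 (95% limits -0.03 to 0.34) and PORCN by -0.11 (-0.33 to 0.11). In the fit with host markers, WLS rose by 0.38 at 100 mpk (adjusted p = 0.0462), by 0.27 at 30 mpk (adjusted p = 0.0462) and by 0.33 against Helicon4neg (adjusted p = 0.0476).

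**Figure D2:**
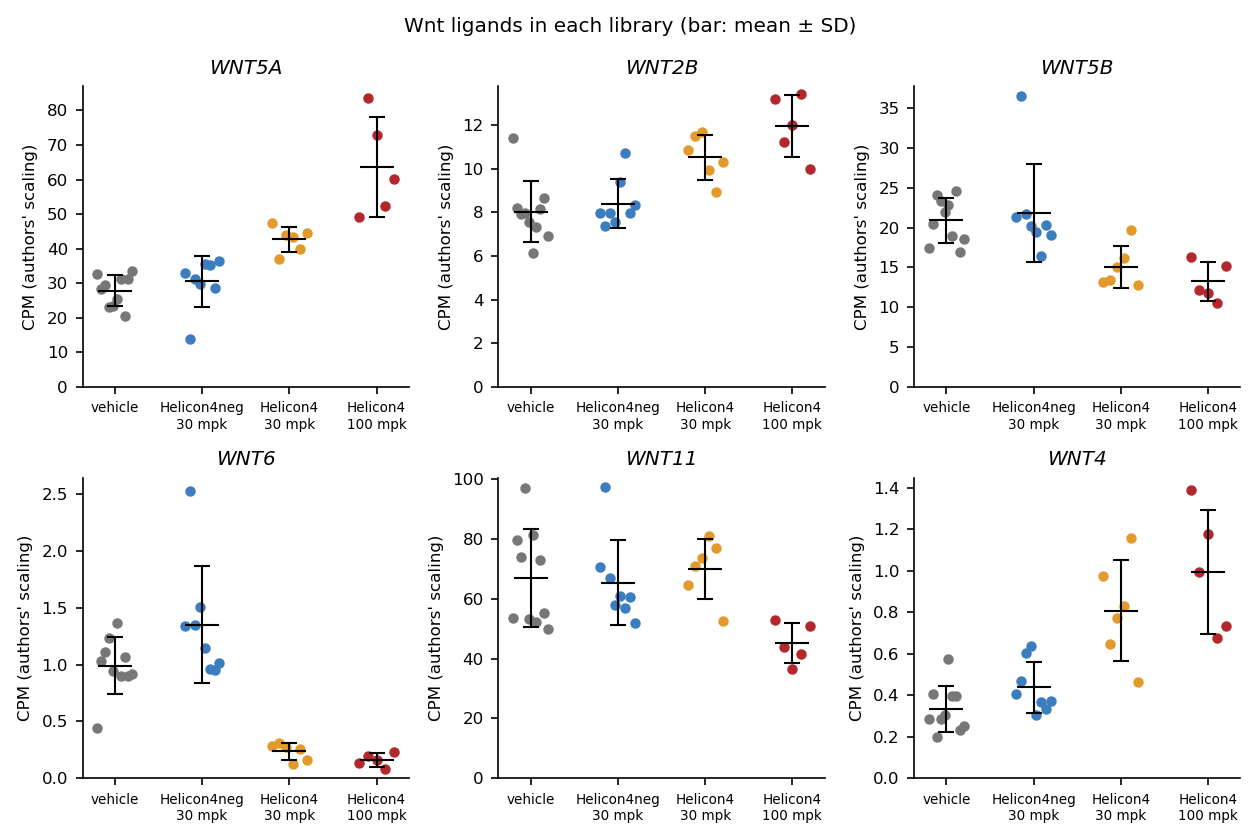
Level of 6 Wnt ligands in each library (points, CPM on the authors' scaling, y axis from 0) by group (x axis), with bars for the mean and SD. WNT5A and WNT2B are higher and WNT5B and WNT6 lower in both Helicon4 groups, WNT11 is lower at 100 mpk only, and WNT4 has group means from 0.334 to 0.993 CPM; the high WNT5B and WNT6 points in Helicon4neg belong to library 2.

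Among the Frizzled receptors, FZD10, FZD8 and FZD1 fell and FZD3 and FZD5 rose at 100 mpk, and FZD2, FZD6, FZD7 and FZD9 did not pass the test. FZD10 (chr12:130162459-130165740, plus strand), a receptor found in few normal adult tissues and raised in colorectal cancer, was at 37.2, 70.3 and 90.2 CPM in vehicle and 51.4, 83.8 and 98.8 with Helicon4neg. It was at 20.5, 23.7 and 33.4 CPM with Helicon4 at 30 mpk and at 11.3, 10.4, 15.1, 10.8 and 22 at 100 mpk. Every Helicon4 library was below every vehicle and Helicon4neg library, while the 2 doses overlapped. FZD10 fell by 2.20 ± 0.18 at 100 mpk (adjusted p = 7.31e-11), by 1.32 ± 0.17 at 30 mpk (adjusted p = 1.03e-06) and by 1.61 ± 0.18 against Helicon4neg (adjusted p = 5.7e-08). Between the doses it fell by 0.88 ± 0.20 (adjusted p = 0.00901). The difference of Helicon4neg from vehicle was 0.29 ± 0.16 (adjusted p = 0.314; 95% limits -0.03 to 0.60).

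With the title code as a block, FZD10 fell by 2.27 at 100 mpk (adjusted p = 0.0277) and by 1.44 against Helicon4neg (adjusted p = 0.0223), while the difference at 30 mpk was -1.34 (adjusted p = 0.242) and that between doses -0.94 (adjusted p = 0.564). In the fit with host markers, the FZD10 difference between doses was -0.68 (adjusted p = 0.144). FZD10-AS1, the antisense RNA named for it, shares no exon base with FZD10 in GENCODE 29 and was chosen after its values were seen. It was at 18.1 ± 4.35, 23.4 ± 4.69, 9.89 ± 1.44 and 5.74 ± 1.42 CPM (SD, n = 10, 8, 6 and 5 libraries) in vehicle, Helicon4neg, 30 mpk and 100 mpk. FZD10-AS1 fell by 1.49 ± 0.16 at 100 mpk (adjusted p = 1.34e-08) and by 0.78 ± 0.15 at 30 mpk (adjusted p = 0.000393), and with title codes blocked these differences were -1.08 (adjusted p = 0.53) and -0.54 (adjusted p = 0.987).

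FZD8 (chr10:35638249-35642278, minus strand), a receptor for canonical ligands, was at 34.6, 37.7 and 56.4 CPM in vehicle, 38.8, 46.3 and 57.9 with Helicon4neg and 29.3, 31.4 and 41.3 with Helicon4 at 30 mpk. At 100 mpk its libraries were at 21.2, 17.3, 18.4, 17.4 and 26.5 CPM, below every library of the other groups. FZD8 fell by 0.99 ± 0.12 at 100 mpk (adjusted p = 1.55e-07), by 0.73 ± 0.13 against 30 mpk (adjusted p = 0.00127) and, at 30 mpk, by 0.47 ± 0.12 against Helicon4neg (adjusted p = 0.00554). Its difference from vehicle at 30 mpk was -0.26 ± 0.11 (adjusted p = 0.142). Fitted with title codes blocked, the FZD8 differences were -0.82 (adjusted p = 0.538), -0.63 (adjusted p = 0.653) and -0.45 (adjusted p = 0.713) for the first 3 contrasts. Adjusted for host markers, the one against Helicon4neg was -0.38 (adjusted p = 0.11).

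FZD1, another receptor of the canonical branch, was at 7.6, 11.1 and 12.8 CPM in vehicle and at 5.01, 7.26, 8.38, 8.73 and 9.37 at 100 mpk. It fell by 0.44 ± 0.14 (adjusted p = 0.0165), which was lost without 100 mpk library 1 (adjusted p = 0.0834), with host markers as a covariate (-0.14, adjusted p = 0.643) and with title codes blocked (-0.69, adjusted p = 0.761). At 30 mpk FZD1 was not called against vehicle, nor with edgeR, host markers or title codes blocked. It passed there with DESeq2 (-0.41, adjusted p = 0.0265), in a fit of these 2 groups alone (-0.37, adjusted p = 0.0262) and without the 2 libraries that stand apart (-0.37, adjusted p = 0.0241). With the length slope as a covariate it also passed (-0.54, adjusted p = 0.000114). FZD5, a receptor of intestinal crypt cells, was at 7.93, 11.2 and 12.5 CPM in vehicle and at 13.7, 12.3, 14.7, 24.4 and 13.0 at 100 mpk. FZD5 rose by 0.44 ± 0.11 (adjusted p = 0.00308), and library 4 at 24.4 CPM stood above the other 4. FZD3, known from axon guidance and planar polarity, was at 18.4, 23.6 and 27.6 CPM in vehicle and at 24.7, 32.5, 32.9, 30.3 and 26.9 at 100 mpk, and rose by 0.32 ± 0.09 (adjusted p = 0.00774). Under the title-code block FZD5 and FZD3 differed by 0.52 (adjusted p = 0.767) and 0.22 (adjusted p = 0.83), and with host markers as a covariate by 0.46 (adjusted p = 0.0654) and 0.23 (adjusted p = 0.234). FZD7, a receptor of intestinal stem cells, was at 17.6 ± 2.85 CPM in vehicle and 22.1 ± 2.00 at 100 mpk (SD, n = 10 and 5 libraries). The difference of 0.32 ± 0.13 did not pass (adjusted p = 0.0572), nor with edgeR (0.0543), host markers (0.0537) or title codes blocked (0.817). It passed without the 2 libraries that stand apart (0.28, adjusted p = 0.0202), with DESeq2 (0.33, adjusted p = 0.035) and in a fit of these 2 groups alone (adjusted p = 0.0421). Without the 2 libraries that stand apart FZD7 also rose with Helicon4neg against vehicle (0.29, adjusted p = 0.0234). In that fit FZD7 was lower with Helicon4 than with Helicon4neg at 30 mpk (-0.27, adjusted p = 0.0372). FZD2 differed by 0.03 (95% limits -0.22 to 0.28), FZD6 by -0.03 (-0.53 to 0.46) and FZD9, at under 1 CPM in the mean of every group, by -0.06 ± 0.12.

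**Figure D3:**
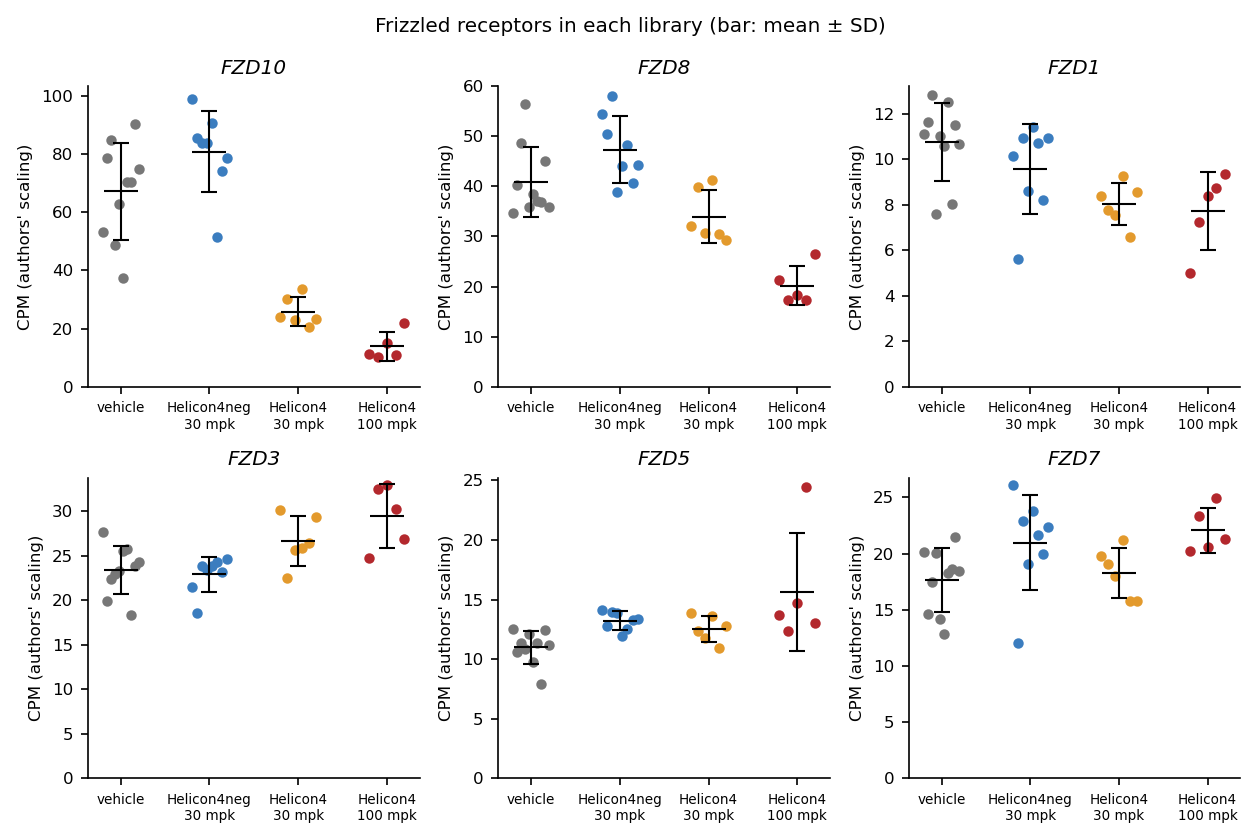
Level of 6 Frizzled receptors in each library (points, CPM on the authors' scaling, y axis from 0) by group (x axis), with bars for the mean and SD. FZD10 falls from a vehicle mean of 67.1 CPM to 25.8 and 13.9 CPM at the 2 doses of Helicon4, FZD8 is lowest at 100 mpk, and the FZD5 mean at 100 mpk includes 1 library at 24.4 CPM.

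These shifts changed the make-up of the receptor and ligand transcripts. Per kb of transcript, FZD10 made up 33.6% ± 5.78 of the summed Frizzled level in vehicle and 36.1% ± 3.99 with Helicon4neg, against 16.6% ± 1.75 with Helicon4 at 30 mpk and 10.3% ± 2.93 at 100 mpk (SD, n = 10, 8, 6 and 5 libraries). FZD2, whose own level did not pass the test in any comparison, made up 23.7% ± 4.03 in vehicle and 35.5% ± 4.39 at 100 mpk, and came first in the order in place of FZD10. The summed Frizzled level was 60.2 ± 6.78, 67.8 ± 6.16, 47.2 ± 4.69 and 40.7 ± 3.69 CPM per kb in the 4 groups. In vehicle the order by mean level per kb was FZD10 (20.4), FZD2 (14.2), FZD8 (10.1), FZD6 (5.55) and FZD7 (4.56), followed by FZD3, FZD5, FZD1 and FZD9 at 1.70 or less. FZD6 and FZD7, and FZD3, FZD5 and FZD1, lay within 1 SD of each other.

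Among the ligands, WNT11 made up 47.1% ± 4.80 of the summed level per kb in vehicle and 37.3% ± 3.07 at 100 mpk, and WNT10B 22.1% ± 2.11 and 24% ± 1.74. WNT5A made up 6.53% ± 1.78 in vehicle, 9.51% ± 1.51 at 30 mpk and 17.0% ± 4.17 at 100 mpk. The sum of the ligands was 58.4 ± 8.36 CPM per kb in vehicle, 60.2 ± 6.18 at 30 mpk and 50.2 ± 4.38 at 100 mpk. These shares are a description with no test, and a share can move because another member of the family did.

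**Figure D4:**
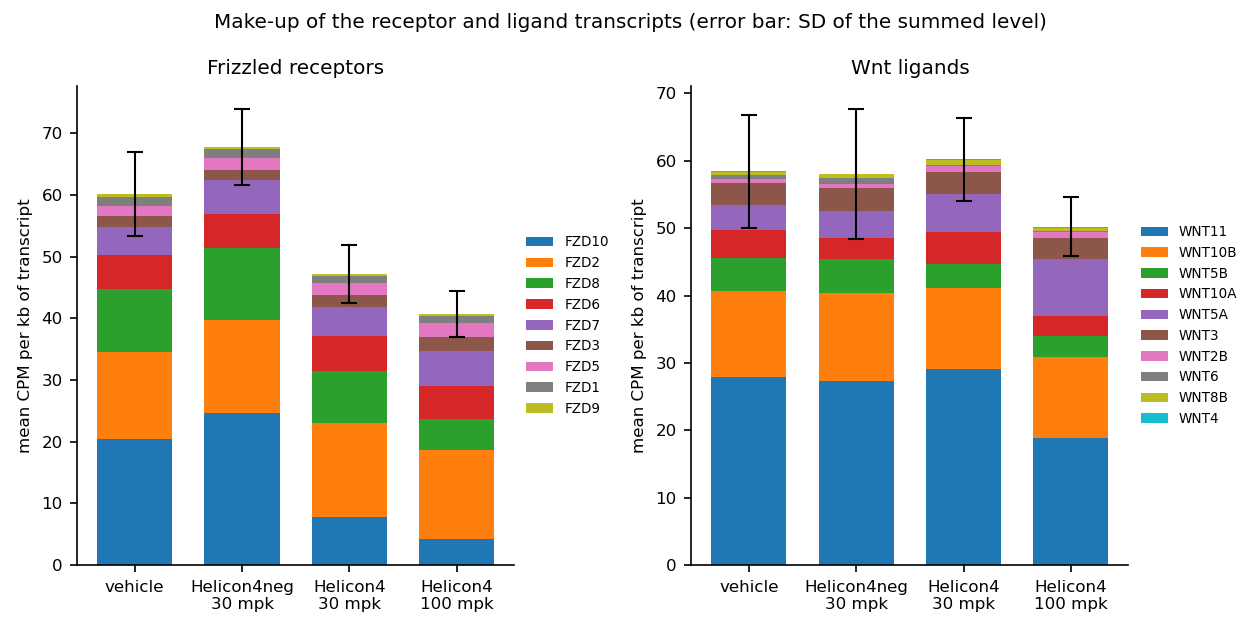
Mean CPM per kb of transcript (y axis) of each Frizzled receptor (left) and each Wnt ligand (right), stacked by group (x axis), with the SD of the summed level as error bars. FZD10, at the base of the left bars, goes from 20.4 CPM per kb in vehicle to 4.24 at 100 mpk, and WNT5A on the right from 3.70 to 8.45.

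Of the 5 co-receptors measured, LGR4 rose and LRP5 fell at 100 mpk, and none passed the test in the other comparisons. LGR4, the R-spondin receptor that protects Frizzled from turnover, was at 5.23, 10.7 and 12.7 CPM in vehicle, 2.81, 11.4 and 13.2 with Helicon4neg and 12.1, 15.2 and 19.4 with Helicon4 at 30 mpk. At 100 mpk its libraries were at 16.3, 23.8, 25.4, 24.6 and 18.1 CPM, above every vehicle and Helicon4neg library. LGR4 rose by 1.05 ± 0.21 at 100 mpk (adjusted p = 0.000382), while the differences at 30 mpk, 0.57 ± 0.20 from vehicle (adjusted p = 0.069) and 0.58 ± 0.21 from Helicon4neg (adjusted p = 0.0626), did not pass. Without the 2 libraries that stand apart the difference from vehicle at 30 mpk passed (0.54, adjusted p = 0.00575), as it did with DESeq2 (adjusted p = 0.0241) and in a fit of these 2 groups alone (adjusted p = 0.0142). It did not pass with edgeR, with the replicate block, with the length slope or with host markers as a covariate (0.63, adjusted p = 0.0701). In the fit blocked on title code, the LGR4 difference from vehicle was 0.20 at 100 mpk (adjusted p = 0.937) and 0.0087 at 30 mpk (adjusted p = 0.998).

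LRP5, the co-receptor phosphorylated when Wnt binds, was at 57.4, 92.7 and 104 CPM in vehicle and at 74.8, 35.6, 63.9, 63.9 and 77.5 at 100 mpk. It fell by 0.53 ± 0.16 (adjusted p = 0.0104), with overlap of the groups, and without 100 mpk library 2 the fall did not pass (-0.34, adjusted p = 0.0854). With host markers as a covariate the LRP5 difference was 0.02 (adjusted p = 0.952), a change of sign, and with title codes blocked -0.69 (adjusted p = 0.78). Its paralog LRP6 was at 76.3 ± 15.2 CPM in vehicle and 96.5 ± 15.5 at 100 mpk (SD, n = 10 and 5 libraries), a difference of 0.34 that did not pass (adjusted p = 0.107). ROR1 and RYK, receptors for Wnt5-type ligands, differed by 0.62 ± 0.29 (adjusted p = 0.112) and 0.21 ± 0.09 (adjusted p = 0.0651). Without the 2 libraries that stand apart, LRP6, ROR1 and RYK passed at 100 mpk (0.33, 0.53 and 0.25, adjusted p = 0.0362, 0.0214 and 0.00532). In that fit ROR1 also rose with Helicon4neg against vehicle (0.51, adjusted p = 0.0339). With title codes blocked, LRP6 differed at 100 mpk by -0.20 (adjusted p = 0.903) and ROR1 by -0.56 (adjusted p = 0.856), both a change of sign. RYK differed there by 0.13 (adjusted p = 0.9005).

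All 3 Dishevelled proteins pass the signal from Frizzled to AXIN, and DVL1 and DVL2 fell at 100 mpk. DVL1 was at 91.1, 125 and 188 CPM in vehicle, 126, 146 and 173 with Helicon4neg, 87.7, 111 and 130.3 with Helicon4 at 30 mpk, and 100.0, 51.3, 70.6, 82.3 and 86.9 at 100 mpk. The group at 100 mpk was lowest and overlapped vehicle in 1 library. DVL1 fell by 0.71 ± 0.14 (adjusted p = 0.000259); against Helicon4neg at 30 mpk it fell by 0.42 ± 0.14 (adjusted p = 0.0367). That second call was lost without Helicon4neg library 1 (0.0578), 2 (0.0525), 3 (0.0668) or 4 (0.0667), or Helicon4 30 mpk library 1 (0.0825), 5 (0.0728) or 6 (0.11). DVL2 was at 72.0, 92.5 and 107 CPM in vehicle and at 79.1, 54.8, 68.8, 69.7 and 87.7 at 100 mpk, and fell by 0.35 ± 0.09 (adjusted p = 0.00283). Between the doses DVL1 and DVL2 were not called, nor with edgeR, host markers or title codes blocked. Both fell there with DESeq2 (-0.50 and -0.32, adjusted p = 0.0396 and 0.03) and without the 2 libraries that stand apart (-0.52 and -0.33, adjusted p = 0.0304 and 0.0299). They also passed with the length slope as a covariate.

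DVL3 rose with Helicon4neg by 0.26 ± 0.07 (adjusted p = 0.0201), from 192, 214 and 258 CPM in vehicle to 233, 256 and 309. DVL1 differed there by 0.23 ± 0.12 (adjusted p = 0.298), and the difference between the 2 genes was not tested. At 30 mpk it was lower with Helicon4 than with Helicon4neg by 0.23 ± 0.08 (adjusted p = 0.0367), and it differed from vehicle by 0.03 ± 0.07 (adjusted p = 0.839). The rise was lost without Helicon4neg library 4 (0.0641), and the fall against Helicon4neg without Helicon4neg library 3 (0.0641), 4 (0.0844) or 8 (0.0582), or Helicon4 30 mpk library 1 (0.0663), 2 (0.0553), 3 (0.0527), 5 (0.0852) or 6 (0.0803). In the fit with host markers, none of these Dishevelled calls held: DVL1 differed at 100 mpk by -0.50 (adjusted p = 0.105) and against Helicon4neg by -0.26 (adjusted p = 0.333), DVL2 by -0.09 (adjusted p = 0.604), and DVL3 by 0.23 (adjusted p = 0.0546) and -0.11 (adjusted p = 0.473). Fitted with title codes blocked, the values were -0.11 (adjusted p = 0.937) and -0.38 (adjusted p = 0.894) for DVL1, -0.21 (adjusted p = 0.821) for DVL2, and 0.23 (adjusted p = 0.314) and -0.23 (adjusted p = 0.961) for DVL3. Per kb, DVL3 made up 41.8% ± 3.42 of the summed Dishevelled level in vehicle and 50.5% ± 2.50 at 100 mpk (SD, n = 10 and 5 libraries), and DVL1 38.4% ± 3.48 and 29.7% ± 2.65.

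Of the 4 scaffolds, AXIN1 fell and APC rose at 100 mpk. AXIN1, the limiting scaffold of the destruction complex, was at 66.2, 89.2 and 118 CPM in vehicle, 93.2, 101 and 111 with Helicon4neg, 72.0, 79.9 and 92.2 with Helicon4 at 30 mpk, and 81.7, 46.4, 67.8, 67.2 and 73.8 at 100 mpk. The 30 mpk libraries all lay below the Helicon4neg libraries, and both doses overlapped vehicle. AXIN1 fell by 0.44 ± 0.11 at 100 mpk (adjusted p = 0.00253) and by 0.31 ± 0.11 against Helicon4neg (adjusted p = 0.0466). The second call was lost without Helicon4neg library 1 (0.0845), 3 (0.0741), 4 (0.0731), 7 (0.0729) or 8 (0.054), or Helicon4 30 mpk library 1 (0.104), 3 (0.0784), 5 (0.0842) or 6 (0.119), and with a filter of 5 CPM (0.0519). Adjusted for host markers, AXIN1 differed by -0.20 (adjusted p = 0.363) and -0.14 (adjusted p = 0.506), and with title codes blocked by -0.24 (adjusted p = 0.837) and -0.36 (adjusted p = 0.771).

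APC, the scaffold most often truncated in colorectal cancer, was at 29.7, 38.9 and 54.3 CPM in vehicle and at 46.8, 49.3, 69.6, 82.5 and 61.3 at 100 mpk. The 3 highest libraries at 100 mpk lay above the vehicle range and the other 2 within it. APC rose by 0.58 ± 0.21 (adjusted p = 0.0334), which was lost without vehicle library 2 (0.0526), 3 (0.0505), 6 (0.0521) or 8 (0.057), or 100 mpk library 3 (0.0935), 4 (0.12) or 5 (0.0597). Under the title-code block the APC difference was -0.28 (adjusted p = 0.896), a change of sign, and with host markers as a covariate 0.85 (adjusted p = 0.0703). AMER1, which recruits APC and AXIN to the membrane, rose with Helicon4neg by 0.47 ± 0.12 (adjusted p = 0.0235), from 30.8, 52.8 and 61.2 CPM in vehicle to 52, 70.5 and 81.9. That call was lost without Helicon4neg library 3 (0.0561) or 8 (0.0593), with host markers as a covariate (0.41, adjusted p = 0.0634) and with title codes blocked (0.11, adjusted p = 0.786). With Helicon4 at 30 mpk AMER1 differed from vehicle by 0.32 and passed with host markers as a covariate (0.45, adjusted p = 0.0466). APC2, a relative of APC found mainly in the nervous system, was at 1.47 ± 0.43 CPM in vehicle (SD, n = 10 libraries) and differed at 100 mpk by -0.05 (95% limits -0.37 to 0.27). With host markers as a covariate APC2 was higher with Helicon4 than with Helicon4neg at 30 mpk (0.58, adjusted p = 0.0267), where it otherwise differed by 0.17.

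**Figure D5:**
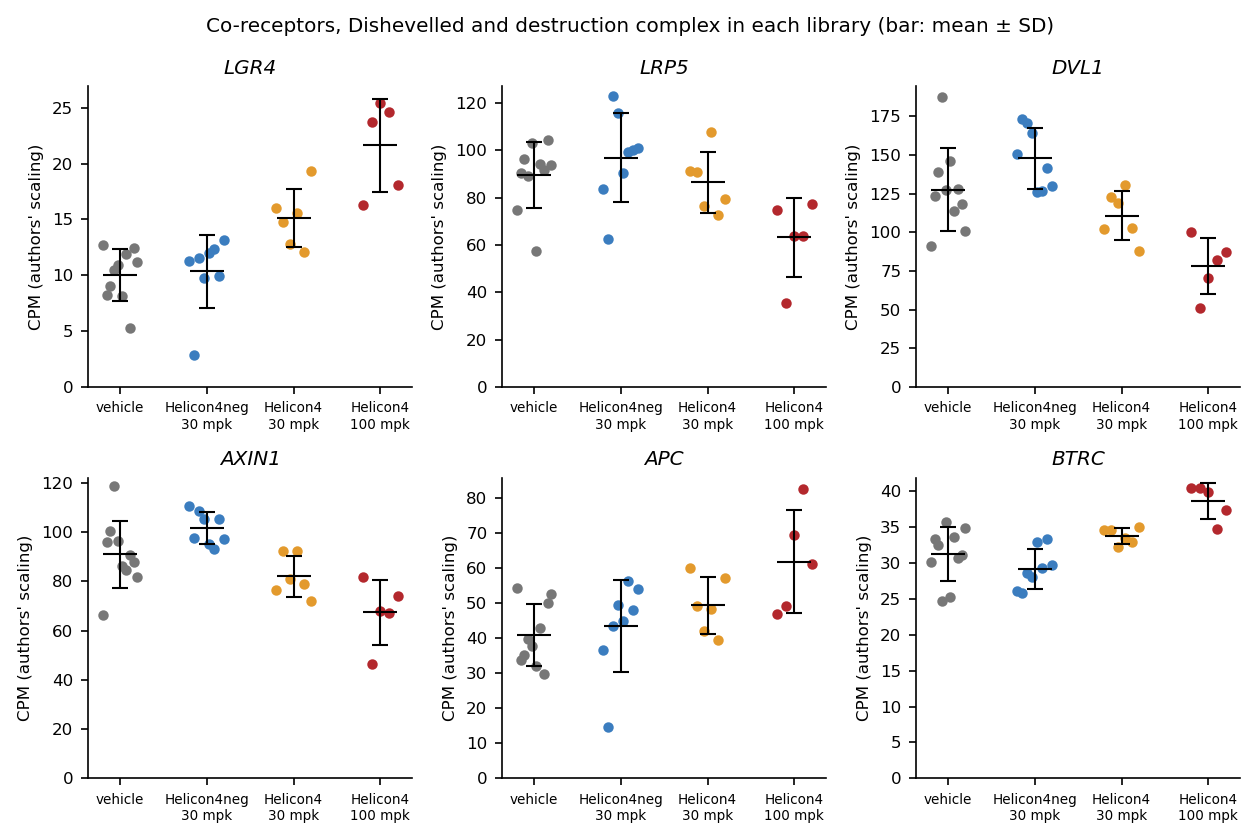
Level of LGR4, LRP5, DVL1, AXIN1, APC and BTRC in each library (points, CPM on the authors' scaling, y axis from 0) by group (x axis), with bars for the mean and SD. At 100 mpk LGR4 lies above all vehicle libraries, while LRP5, DVL1, AXIN1, APC and BTRC overlap vehicle.

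Of the 8 kinases, 2 of the casein kinase 1 gamma group, which phosphorylate LRP6, passed the test at 100 mpk. CSNK1G2 fell by 0.37 ± 0.11 (adjusted p = 0.0112), from 94.7, 132 and 144 CPM in vehicle to 113, 77.6, 86.3, 98.6 and 106, and without 100 mpk library 2 this did not pass (adjusted p = 0.0608). CSNK1G1 rose by 0.32 ± 0.11 (adjusted p = 0.0244), from 15.0, 22.7 and 27.7 CPM to 23.7, 24.8, 29.6, 27.6 and 28.3, which was lost without 100 mpk library 3 (0.0822), 4 (0.0548) or 5 (0.0586), and in a fit of these 2 groups alone (0.0627). In the fit blocked on title code, CSNK1G2 differed by 0.10 (adjusted p = 0.917), a change of sign, and CSNK1G1 by 0.03 (adjusted p = 0.978), and with host markers as a covariate by -0.23 (adjusted p = 0.339) and 0.46 (adjusted p = 0.0563). At 30 mpk CSNK1G1 differed from vehicle by 0.28, which passed with host markers as a covariate (0.35, adjusted p = 0.0417) and with DESeq2 (0.28, adjusted p = 0.0489). The kinases that phosphorylate β-catenin itself passed in none of the 5 comparisons. At 100 mpk GSK3B differed by 0.24 (95% limits -0.03 to 0.51) and CSNK1A1, which primes β-catenin for GSK3, by 0.22 (-0.12 to 0.55). Adjusted for host markers, CSNK1A1 rose by 0.69 (adjusted p = 0.0426), and without the 2 libraries that stand apart GSK3A and CSNK1E, of the same 2 kinase families, fell by 0.28 (adjusted p = 0.0276) and 0.20 (adjusted p = 0.0268). With title codes blocked, CSNK1A1, GSK3A and CSNK1E differed at 100 mpk by -0.52, 0.18 and 0.05 (adjusted p = 0.809, 0.8855 and 0.949), each a change of sign.

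Of the 7 genes of ubiquitination and protein turnover, BTRC and TNKS rose at 100 mpk. BTRC, which encodes the β-TrCP subunit that binds phosphorylated β-catenin, was at 24.7, 31.9 and 35.8 CPM in vehicle and at 40.5, 40.4, 39.9, 34.7 and 37.5 at 100 mpk. It rose by 0.30 ± 0.08 (adjusted p = 0.0051), with 1 library at 100 mpk inside the vehicle range. Fitted with title codes blocked, the BTRC difference was 0.09 (adjusted p = 0.928). TNKS, a tankyrase that marks AXIN for destruction, was at 34, 42.2 and 57.5 CPM in vehicle and at 44.7, 55, 55.6, 57.9 and 55.4 at 100 mpk.

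TNKS rose by 0.31 ± 0.12 (adjusted p = 0.0471), a call lost in 10 of 15 fits that left out 1 library: vehicle library 2 (0.0722), 3 (0.0613), 4 (0.073), 5 (0.0623), 6 (0.0717) or 8 (0.0824), or 100 mpk library 2 (0.094), 3 (0.105), 4 (0.112) or 5 (0.09). Under the title-code block the TNKS difference was -0.01 (adjusted p = 0.989), a change of sign, with host markers as a covariate 0.44 (adjusted p = 0.093), and with the length slope as a covariate 0.15 (adjusted p = 0.0855). RNF146, the ubiquitin ligase that acts on tankyrase-marked AXIN, fell with Helicon4neg by 0.38 ± 0.10 (adjusted p = 0.0269), from 13.4, 16.5 and 17.4 CPM in vehicle to 6.64, 12.9 and 16.1, and was lost without Helicon4neg library 5 (adjusted p = 0.0531). At 30 mpk RNF146 was higher with Helicon4 than with Helicon4neg by 0.50 ± 0.12 (adjusted p = 0.00296), with no overlap, and differed from vehicle by 0.12 ± 0.11 (adjusted p = 0.494). USP7, a deubiquitinase, was lower with Helicon4 than with Helicon4neg at 30 mpk by 0.21 ± 0.06 (adjusted p = 0.0138), at 238, 257 and 264 CPM against 262, 295 and 320.4. In the fit blocked on title code, the RNF146 differences were -0.54 (adjusted p = 0.167) and 0.35 (adjusted p = 0.916) and that of USP7 -0.21 (adjusted p = 0.847). With host markers as a covariate USP7 differed by -0.22 (adjusted p = 0.0571).

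CTNNBIP1, a small protein that blocks the binding of β-catenin to TCF factors, was at 16.6, 21.1 and 24.7 CPM in vehicle, 21.2, 26.3 and 35.5 with Helicon4neg, 19.5, 20.1 and 24.1 with Helicon4 at 30 mpk, and 21.2, 19.9, 18.1, 21.1 and 22.6 at 100 mpk. Only the Helicon4neg group was high. CTNNBIP1 rose with Helicon4neg by 0.30 ± 0.08 (adjusted p = 0.031) and was lower by 0.32 ± 0.10 with Helicon4 than with Helicon4neg (adjusted p = 0.0218). It differed from vehicle by -0.01 (95% limits -0.20 to 0.17) at 30 mpk and -0.04 (-0.24 to 0.15) at 100 mpk. The rise was lost without vehicle library 1 (0.0538) or 9 (0.0554) or Helicon4neg library 1 (0.0577), 4 (0.061) or 8 (0.0675), and the fall without Helicon4 30 mpk library 1 (0.0558) or 6 (0.054). In the fit with host markers, the 2 differences were 0.29 (adjusted p = 0.0643) and -0.26 (adjusted p = 0.174), and with title codes blocked 0.50 (adjusted p = 0.114, p = 0.000926 before adjustment) and -0.29 (adjusted p = 0.843).

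Helicon4neg and Helicon4 could be compared at 1 matched dose, 30 mpk. Called in the same direction against vehicle at 100 mpk and against Helicon4neg at 30 mpk, beside WNT6, were 7 of 47 genes (14.9%), where 9.89% of all genes tested were: WNT5A and WNT2B, which rose, and WNT5B, FZD10, FZD8, DVL1 and AXIN1, which fell. For DVL3, CTNNBIP1 and RNF146, called in both comparisons with Helicon4neg, the Helicon4neg group differed from vehicle and Helicon4 at 30 mpk did not pass against vehicle. In a fit of Helicon4neg and vehicle alone, none of the 4 calls of that comparison held: adjusted p was 0.05 for DVL3, 0.0511 for AMER1, 0.0854 for RNF146 and 0.0903 for CTNNBIP1. For WNT5A, WNT2B, WNT5B and LGR4 the difference of Helicon4neg from vehicle had 95% limits of -0.19 to 0.38, -0.11 to 0.24, -0.20 to 0.27 and -0.39 to 0.37, and for FZD8 of 0.00 to 0.42.

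Of 56 further genes of the pathway tested (secreted inhibitors, R-spondins, feedback inhibitors, planar polarity proteins and nuclear factors), 10 rose and 19 fell at 100 mpk (51.8%, against 30.2% of all genes) and 6 rose and 13 fell at 30 mpk (33.9% against 11.1%). With Helicon4neg 3 rose (5.36% against 4.84%), with Helicon4 against Helicon4neg 10 rose and 14 fell (42.9% against 15.1%), and between the doses 1 rose and 7 fell (14.3% against 3.6%). This list was chosen with earlier results of these data known, so its shares are a description and no test of the list. The 4 with the smallest adjusted p against vehicle at either dose were the secreted inhibitors DKK4 and DKK1 and the feedback inhibitors NKD1 and DACT1. DKK4 passed the filter only through vehicle and Helicon4neg, with means of 0.0533 and 0.0937 CPM at 100 and 30 mpk. It had to be higher there, so its values are a description with no test. DKK4 is counted among the genes that fell against vehicle at each dose and against Helicon4neg. At 100 mpk NKD1 was at 75.6 ± 18.4 CPM against 289 ± 39.1 in vehicle, DKK1 at 1.89 ± 0.68 against 17.0 ± 4.22, DACT1 at 6.44 ± 2.09 against 26.2 ± 3.67, and DKK4 at 0.0533 ± 0.0381 against 32.5 ± 13.7 (SD, n = 5 and 10 libraries). With Helicon4neg the 3 that rose were NOTUM by 0.52 ± 0.13 (adjusted p = 0.0145), CELSR3 by 0.31 ± 0.08 (adjusted p = 0.0148) and RSPO1 by 0.38 ± 0.11 (adjusted p = 0.0361). Between the doses WIF1, a secreted protein that binds Wnt ligands, fell by 1.56 ± 0.22 (adjusted p = 5.4e-05) and NKD2 by 0.99 ± 0.17 (adjusted p = 0.000905).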

How the data were processed

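PolyA RNA of 29 libraries was sequenced on a NovaSeq S4. Per the submitters' processing notes, the tools were Trimmomatic 0.39, STAR 2.7.7a, featureCounts of Subread 2.4.2 and edgeR 4.0.2 with GRCh38. Settings, annotation and the use of strand are not given in the sources used here, and 2 library kits are named. Host reads could fall under human genes, since no mouse genome is named. The authors deposited a signal: reads per gene over an effective library size, that is, CPM scaled between libraries, as the whole multiples in the columns show. Columns summed to between 0.921 and 1.263 M, and 100% of values were whole reads within 0.05 reads, which gave depths of 26.8 to 61.6 M. The deposited gene length, another value, was used for levels per kb.

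The filter of 1 CPM or more in 5 or more libraries left 13373 of 13492 genes. On log2(CPM + 1), R 4.3.3 ran limma 3.58.1 with trend and robust options, all 4 groups in 1 fit with no covariate, two-sided, with Benjamini-Hochberg adjustment over all genes and a threshold of 0.05. The plan gave edgeR as the test for counts and limma for scaled values. Alternatives were TMM factors, no filter, a minimum of 5 CPM, a pseudocount of 0.1, limma without trend and robust fitting, only the 2 groups compared, replicate number or title code as a block, length slope or host marker level as a covariate, leaving out 2 libraries that stand apart or each library in turn, and edgeR 4.0.16 and DESeq2 1.42.0 on recovered reads. The fit was tested on simulated data. Members and lists were chosen with earlier results of these data known. Named with values were all WNT and FZD genes, LRP5, LRP6, LGR4, PORCN, WLS, the DVL genes, AXIN1, APC, APC2, GSK3B, CSNK1A1, BTRC and CTNNBIP1, any other member called in a comparison, and up to 4 other pathway genes with the smallest adjusted p per comparison. ROR1, RYK, GSK3A, CSNK1E, ST7L and FZD10-AS1 are outside that rule. Gene positions are from GENCODE 29; the annotation the authors used is not given in the sources used here.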

Additional observations from a re-analysis of the deposited data

Results flagged for a closer look

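Of 196 sets of libraries (49 genes in 4 groups), 22 had 1 library far from the others of its group by Dixon's criterion, which chance gives in about 1 of 20 sets. Helicon4neg library 2 accounted for 18 of them. It was the highest of its group for WNT11 (97.5 CPM, next 70.6), GSK3A (126, next 78.0), WNT5B (36.5, next 21.8), WNT6 (2.52, next 1.51), CSNK1G2 (181, next 140), CSNK1D (198, next 148), WNT10B (57.2, next 35.5), CTNNBIP1 (35.5, next 27.8) and CSNK1E (317, next 262). It was the lowest for GSK3B (46.4, next 70.6), TNKS2 (18.8, next 49), CSNK1A1 (27.9, next 57.2), WNT5A (13.9, next 28.7), APC2 (0.374, next 1.32), WLS (105, next 151), APC (14.6, next 36.8), FZD6 (5.24, next 21.4) and LGR4 (2.81, next 9.77). This is the library with the lowest slope of log2 values on gene length, at -0.321.

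The other 4 were vehicle library 1, lowest for WNT6 (0.443 CPM, next 0.899) and highest for WNT2B (11.4, next 8.68), Helicon4 100 mpk library 4, highest for FZD5 (24.4, next 14.7), and Helicon4 100 mpk library 1, lowest for TNKS (44.7, next 55).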

How the results depend on the processing

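Over 48 genes and 5 comparisons, 240 of 240 results kept their direction where called and their side of the threshold with a pseudocount of 0.1, with TMM factors, without a filter and without trend and robust fitting. With edgeR's quasi-likelihood test 239 did, and with DESeq2 229. With the title code as a block 39 calls were lost and 4 changed sign, all at 100 mpk against vehicle: WNT11 (0.32), CSNK1G2 (0.10), APC (-0.28) and TNKS (-0.013). With host markers as a covariate 23 calls were lost and 8 gained (CSNK1A1 and WLS at 100 mpk; AMER1, CSNK1G1 and WLS at 30 mpk; APC2, WLS and WNT10A against Helicon4neg), and WNT10A (0.13) and LRP5 (0.021) changed sign at 100 mpk; with the length slope 17 were gained, with DESeq2 10, without the 2 libraries that stand apart 16, and without a filter WNT4 in 3 comparisons. With the length slope as a covariate FZD6, not called otherwise, fell against vehicle at 100 mpk (-0.40, adjusted p = 0.00394) and at 30 mpk (-0.35, adjusted p = 0.0163). At 30 mpk this was a change of sign. The cause was not tested.

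Comparisons follow in the report's order (vehicle as comparator for 100 mpk, 30 mpk and Helicon4neg, then Helicon4 against Helicon4neg, then dose against dose). Members called were 21, 5, 4, 12 and 3; with title codes blocked 1, 0, 0, 1 and 0; with host markers 10, 8, 1, 8 and 1; with the length slope 21, 8, 6, 16 and 10; with DESeq2 21, 8, 4, 15 and 6; with only the 2 groups 21, 7, 0, 12 and 4; without the 2 libraries that stand apart 27, 7, 6, 13 and 8. Genes called were 4043, 1481, 647, 2018 and 482; with title codes blocked 141, 74, 2, 184 and 10. With host markers 2371, 2703, 476, 1774 and 134 were called. With the length slope 2249, 2383, 3440 and 2000 were called in the second to last. With only the 2 groups 366 were called for Helicon4neg, with DESeq2 1105 for it and 750 between doses, and without the 2 libraries 2025 and 1051. Leaving out 1 library gave 17 to 24, 4 to 6, 2 to 7, 6 to 13 and 2 to 6 members, and 2947 to 4378, 983 to 1621, 381 to 2592, 1500 to 2295 and 203 to 695 genes. The most genes for Helicon4neg, 2592, came without Helicon4neg library 2.

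Replicate numbers did not pair the libraries: r was between -0.70 and 0.52 over 35 pairs (15 of them above 0.1), and 0 of 27 libraries had their highest r with their own number. With the replicate block 24, 6, 2, 9 and 3 members were called, and 8 calls given in the report were lost, with adjusted p from 0.0522 (WNT2B at 30 mpk) to 0.114 (CTNNBIP1 with Helicon4neg), that of WNT2B against Helicon4neg being 0.108. WNT4, WNT6, WNT8B, FZD9 and APC2 had so few reads that counting error was part of their spread.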
